A study of Homo sapiens with 5 samples.

Results

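The genes described here are the transcriptional coactivators YAP1 and WWTR1 (which encodes TAZ), the DNA-binding factors TEAD1 and TEAD4 that carry them, and genes that answer to them or act on them, which are CTGF, CYR61, ANKRD1, AMOTL2, LATS2 and AJUBA. They were compared between gefitinib-resistant HCC827/GR cells and parental, gefitinib-sensitive HCC827 cells. HCC827 is a human lung adenocarcinoma line, labelled with a deletion in exon 19, the activating lesion of EGFR for which the line is known. HCC827/GR cells were raised from it by stepwise increases of gefitinib, an EGFR kinase inhibitor, over more than 6 months, and both groups carry the deletion. The members were taken by gene symbol from a table of 37181 genes or assembled loci, each with 1 FPKM value (fragments mapped to a gene, scaled by its transcript length and by the size of the library) per library. Of the 10 symbols, 9 had an entry, and all 9 reached the mean of 0.5 FPKM that was required for testing, among 16189 entries that did. TEAD4 had no entry under its own name, because its transcripts were joined with those of the neighbouring non-coding gene AC125807.2, and that joined entry is given separately.

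The values come from 3 HCC827/GR libraries (replicates 1, 2 and 3) and 2 HCC827 libraries (replicates 2 and 3). The labels name neither separate cultures nor clones, nor whether gefitinib was in the medium at harvest, so p-values measure only the spread between these libraries. FPKM carries no read counts, and the depth behind each value is unknown. Of 6 epithelial markers 5 were found, and their summed FPKM was 1063 to 1182 in HCC827 and 443 to 573 in HCC827/GR libraries, with 4 of the 5 lower at the adjusted p defined with the first test. In bulk RNA, fewer expressing cells and less RNA per cell cannot be told apart. Fibroblast markers summed to 0.792 to 1.03 FPKM in HCC827 and 0.807 to 1.17 FPKM in HCC827/GR libraries over all 6 genes. COL1A1 was the largest part of each sum. PDGFRB was higher without overlap, at 0.184 to 0.278 FPKM in HCC827/GR against 0.00777 and 0.0147 FPKM in HCC827. LUM, at 0.0123 to 0.0255 against 0.0930 and 0.257 FPKM, and COL3A1 were lower without overlap. PDGFRB, LUM and COL3A1 did not reach the mean required for testing. PTPRC of blood cells stayed at or below 0.0228 FPKM, and VWF and CDH5 of endothelium at or below 0.0268 and 0.0749 FPKM. The PECAM1 entry matched no annotated transcript and stood at 4.34 and 3.32 FPKM in HCC827 against 0 in every HCC827/GR library, and CD68 lay in an entry joined with other genes.

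The Hippo pathway controls YAP and TAZ through a kinase relay. STK3 and STK4 with their scaffold SAV1 activate the kinases LATS1 and LATS2, which phosphorylate YAP and TAZ and so keep them out of the nucleus. Unphosphorylated YAP and TAZ enter the nucleus, bind TEAD factors and switch on genes for matrix, cytoskeleton and growth. LATS2 and AMOTL2 are at the same time targets and restrainers of YAP and TAZ, which makes them a feedback arm. In lung adenocarcinoma the pathway is studied for its part in survival under EGFR inhibitors. RNA levels do not show the phosphorylation or the place of YAP and TAZ in the cell.

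TEAD factors bind DNA at the letters GGAATG, and promoters are shown here for 3 members to place these letters beside the expression values. CTGF and ANKRD1 have the most matches among the 7 members with a promoter window, and YAP1 is the member that fell. The windows are the 250 bases before the transcription start in RefSeq (build GRCh38.p14), written along the gene's strand, with each GGAATG in capitals. CTGF (named CCN2 in RefSeq) is chr6:131951373-131951622 on the minus strand, ANKRD1 is chr10:90921088-90921337 on the minus strand, and YAP1 is chr11:102110197-102110446 on the plus strand.
CTGF: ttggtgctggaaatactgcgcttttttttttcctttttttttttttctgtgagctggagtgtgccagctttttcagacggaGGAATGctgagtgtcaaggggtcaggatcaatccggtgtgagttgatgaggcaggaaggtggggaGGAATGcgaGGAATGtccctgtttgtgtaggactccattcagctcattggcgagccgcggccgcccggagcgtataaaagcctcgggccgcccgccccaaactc
ANKRD1: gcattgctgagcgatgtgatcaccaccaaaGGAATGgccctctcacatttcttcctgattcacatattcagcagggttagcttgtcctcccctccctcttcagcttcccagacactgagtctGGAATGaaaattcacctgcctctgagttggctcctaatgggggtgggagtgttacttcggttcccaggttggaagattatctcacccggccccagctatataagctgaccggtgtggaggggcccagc
YAP1: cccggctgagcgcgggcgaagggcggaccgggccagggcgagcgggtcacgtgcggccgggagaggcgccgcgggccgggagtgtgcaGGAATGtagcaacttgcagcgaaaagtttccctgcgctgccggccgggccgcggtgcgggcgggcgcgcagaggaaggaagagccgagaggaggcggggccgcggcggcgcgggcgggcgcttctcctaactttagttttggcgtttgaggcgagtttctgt

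In the CTGF window the 3 matches begin 169, 104 and 95 bases before the start. In the ANKRD1 window the 2 matches begin 220 and 128 bases before it, and the single match of YAP1 begins 162 bases before it. Counting also the 50 bases after the start and both strands (GGAATG or CATTCC), 6 of 10 windows of members held a match, and these belonged to 6 of the 7 members with a window. The other matches were 1 each in AMOTL2, LATS2 and AJUBA, and both windows of WWTR1 held none. CYR61, TEAD1 and TEAD4 had no window and were not used for this count. Among all 35116 windows of the same length, 14.0% held at least 1 match and 0.128% held at least 3. These shares count windows, so they stand beside the 6 of 10 windows and not beside the 6 of 7 members. The members were chosen as partners, targets and regulators of YAP and TAZ, not at random. A match describes the letters only and does not show that a TEAD factor was bound in these cells.

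Among the members, 3 rose in HCC827/GR cells and 1 fell. ANKRD1, CYR61 and LATS2 were higher and YAP1 was lower at an adjusted p under 0.05 (limma on log2(FPKM + 1) with its mean-variance trend, two-sided, Benjamini-Hochberg adjustment over all 16189 entries). Over all entries tested, 5.26% were called higher and 5.71% lower by this rule. The other 5 members were not called. At a fold change of at least 2, taken from log2(FPKM + 1) values, with an unadjusted p under 0.05, ANKRD1, CTGF and CYR61 passed upward. No member passed downward, where 2.96% of all entries passed upward and 3.97% downward. LATS2 missed this fold with a log2 fold change of 0.98, while its ratio of the mean FPKM was 2.27. The values of the 2 cell lines did not overlap for 4 higher members and 1 lower member, against 22.8% and 23.4% of all entries. Without HCC827/GR replicate 2 or 3, 1 member was called higher, without HCC827 replicate 3, 0 were (with 5 higher at an unadjusted p under 0.05 in limma), and YAP1 was not called lower whichever library was left out. The median log2 fold change of the 9 members was 0.76, and that of all entries tested was 0.00. The middle member was TEAD1, which was not called and whose change was 0.07 without HCC827 replicate 3.

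**Figure D1:**
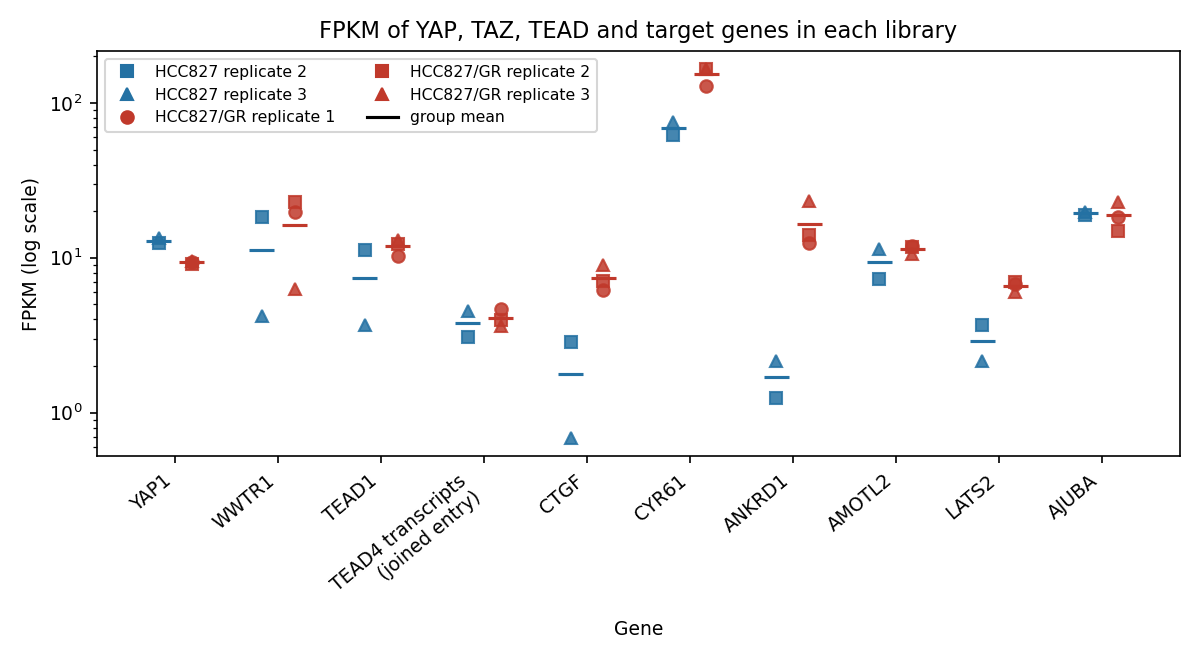
FPKM (log scale) of each member in the 5 libraries, with HCC827 in blue, HCC827/GR in red, a symbol for each replicate number and a bar at the group mean. ANKRD1, CTGF, CYR61 and LATS2 lie higher in all HCC827/GR libraries and YAP1 lies lower, while WWTR1 is low in replicate 3 of both cell lines.

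YAP1 lies on chromosome 11 from 102110461 to 102233423 (GRCh38, GENCODE release 29, as for all gene positions given). It had 9.36, 9.09 and 9.51 FPKM in replicates 1, 2 and 3 of HCC827/GR and 12.4 and 13.4 FPKM in HCC827 replicates 2 and 3. All HCC827/GR libraries were below both HCC827 libraries, and the spread within each group was small. YAP1 fell by 0.43 on the log2 scale (standard error 0.088, adjusted p = 0.0477 from limma). This call lay at the threshold, since the adjusted p was above it whichever library was left out, from 0.099 without HCC827 replicate 2 to 0.137 without HCC827/GR replicate 1, and ran from 0.0345 to 0.233 over all alternatives.

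WWTR1, on chromosome 3 from 149517235 to 149736714, gave the widest spread of the members. Its values were 19.6, 22.8 and 6.26 FPKM in replicates 1, 2 and 3 of HCC827/GR and 18.2 and 4.20 FPKM in HCC827 replicates 2 and 3. Replicate 3 was the low library in each cell line, and the groups overlapped. On the log2 scale the 2 HCC827 libraries lay 1.89 apart, and 1.37% of all entries tested had a wider gap. The log2 fold change of 0.61 had a 95% interval from -1.44 to 2.66 (adjusted p = 0.677), so a change of WWTR1 in either direction was not detectable, and without HCC827 replicate 3 the value was -0.33.

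Set side by side per length, YAP1 made up 32.3%, 28.5% and 60.3% of the summed FPKM of YAP1 and WWTR1 in HCC827/GR replicates 1, 2 and 3. In HCC827 replicates 2 and 3 it made up 40.4% and 76.2%. The share followed WWTR1, so that YAP1 was the larger part in replicate 3 of each cell line and WWTR1 in all other libraries. The difference between the cell lines, -17.9 percentage points, lay between the SDs within them, 17.4 and 25.3 percentage points (exact permutation test, two-sided, p = 0.5, where 0.1 is the smallest p that 3 libraries against 2 allow), and without HCC827 replicate 3 it was -0.0821 percentage points.

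TEAD1, the TEAD gene with the highest level in 4 of the 5 libraries, lies on chromosome 11 from 12674591 to 12944483. It had 10.3, 12.2 and 13.0 FPKM in replicates 1, 2 and 3 of HCC827/GR and 11.2 and 3.66 FPKM in HCC827 replicates 2 and 3. HCC827 replicate 3 stood apart, whereas HCC827 replicate 2 lay within the HCC827/GR range. The log2 fold change of 0.76 had a 95% interval from -0.35 to 1.88 (adjusted p = 0.330). The value was 0.07 without HCC827 replicate 3 and 1.46 without HCC827 replicate 2.

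The entry that holds TEAD4 joins TEAD4 (chromosome 12, 2959330 to 3040673) with AC125807.2 (3041437 to 3044950), so its FPKM cannot be divided between them. It had 4.68, 3.95 and 3.63 FPKM in replicates 1, 2 and 3 of HCC827/GR and 3.06 and 4.50 FPKM in HCC827 replicates 2 and 3, a log2 fold change of 0.10 with a 95% interval from -0.36 to 0.56. The groups overlapped. TEAD2 had a mean of 6.05 ± 1.30 FPKM (SD, n = 3) in HCC827/GR and 6.16 ± 1.08 FPKM (SD, n = 2) in HCC827 cells, and TEAD3 had 5.16 ± 1.37 and 5.05 ± 0.924 FPKM. Their log2 fold changes of -0.03 and 0.01 changed sign between alternatives, and their 95% intervals, from -0.57 to 0.50 and from -0.59 to 0.61, were wide.

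TEAD1 accounted for 36.9%, 45.3% and 49.2% of the FPKM of the TEAD family in HCC827/GR replicates 1, 2 and 3, and for 41.7% and 20.4% in HCC827 replicates 2 and 3, with the joined entry counted as TEAD4. The share of HCC827 replicate 3 lay below all others. The difference of 12.7 percentage points in TEAD1's share lay between the SDs of HCC827/GR and HCC827, 6.30 and 15.1 percentage points (exact permutation test, two-sided, p = 0.3, with 0.1 as the smallest p possible). Without HCC827 replicate 3 it was 2.09 percentage points, and without HCC827 replicate 2 it was 23.4. The summed FPKM of the family ran from 26.5 to 28.0 in HCC827/GR libraries and was 26.9 and 18.0 in HCC827 replicates 2 and 3.

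**Figure D2:**
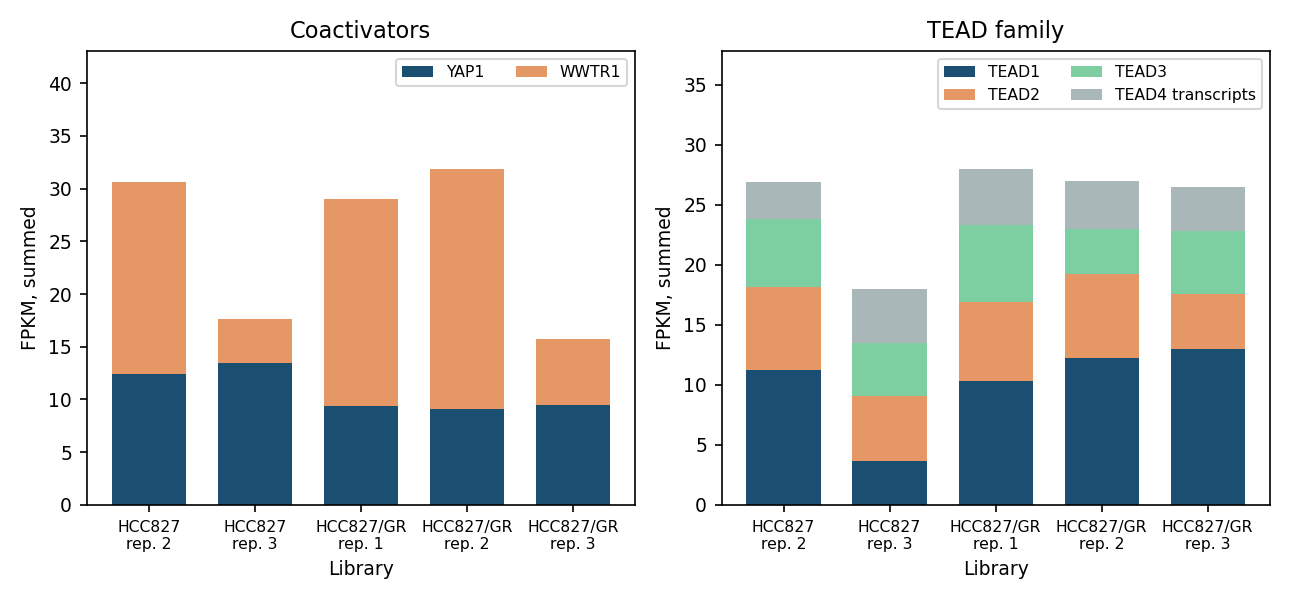
Summed FPKM of YAP1 and WWTR1 (left) and of the TEAD genes (right) in each of the 5 libraries, stacked by gene, with the joined entry standing for TEAD4. WWTR1 shrinks in replicate 3 of both cell lines, to 4.20 and 6.26 FPKM, and TEAD1 in HCC827 replicate 3, to 3.66 FPKM.

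The targets ANKRD1 and CYR61 were called higher, and CTGF was not called. ANKRD1, on chromosome 10 from 90912096 to 90921276, encodes an ankyrin repeat protein of muscle and stressed cells and is widely read as a YAP and TAZ target. It had 12.5, 14.1 and 23.3 FPKM in replicates 1, 2 and 3 of HCC827/GR and 1.24 and 2.16 FPKM in HCC827 replicates 2 and 3. The lowest HCC827/GR library was far above the highest HCC827 library. ANKRD1 rose by 2.68 on the log2(FPKM + 1) scale (standard error 0.31, adjusted p = 0.0134 from limma), a change that 0.204% of all entries exceeded. The ratio of the mean FPKM was 9.77. Without HCC827 replicate 2 or 3 the change was 2.43 or 2.93 with an adjusted p of 0.0879 or 0.0631, where the alternatives spanned 0.0121 to 0.216.

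CYR61, also called CCN1, lies on chromosome 1 from 85580761 to 85583962 and encodes a matricellular protein that binds integrins. It was the most abundant member in every library. Its values were 128.2, 165.1 and 164.9 FPKM in replicates 1, 2 and 3 of HCC827/GR and 61.8 and 74.9 FPKM in HCC827 replicates 2 and 3. All HCC827/GR libraries were above both HCC827 libraries. CYR61 rose by 1.14 on the log2 scale (standard error 0.17, adjusted p = 0.0229 from limma). The call was lost when any library other than HCC827/GR replicate 1 was left out, the adjusted p being 0.0731 and 0.0675 without HCC827/GR replicates 2 and 3 and 0.115 and 0.0767 without HCC827 replicates 2 and 3, and ran from 0.0214 to 0.257 over the alternatives.

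CTGF, or CCN2, on chromosome 6 from 131948176 to 131951373, is the matricellular relative of CYR61 and the gene whose promoter held 3 GGAATG matches. It had 6.19, 7.04 and 8.94 FPKM in replicates 1, 2 and 3 of HCC827/GR and 2.86 and 0.685 FPKM in HCC827 replicates 2 and 3. The groups did not overlap, but the 2 HCC827 libraries differed more from each other, by 1.20 on the log2 scale, than the HCC827/GR libraries did, by 0.47. The log2 fold change of 1.70 (standard error 0.39) had a 95% interval from 0.69 to 2.71, and its adjusted p of 0.0613 did not pass 0.05. Without HCC827 replicate 2 it was 2.30 with an adjusted p of 0.0444, where the alternatives spanned 0.0444 to 0.454, and without HCC827 replicate 3 it was 1.10. CTGF had the lowest level of the 3 targets in the resistant cells, at 7.39 ± 1.41 FPKM (SD, n = 3) against 152.7 ± 21.2 FPKM for CYR61 and 16.6 ± 5.83 FPKM for ANKRD1.

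Of the feedback genes, LATS2, which encodes a kinase that inactivates YAP and TAZ, lies on chromosome 13 from 20973032 to 21061547. It had 6.76, 6.95 and 6.01 FPKM in replicates 1, 2 and 3 of HCC827/GR and 3.65 and 2.14 FPKM in HCC827 replicates 2 and 3, with no overlap. LATS2 rose by 0.98 on the log2 scale (standard error 0.19, adjusted p = 0.0434 from limma). Its adjusted p was 0.128, 0.123 and 0.0971 without HCC827/GR replicates 1, 2 and 3 and 0.0887 without HCC827 replicate 3, and ran from 0.0402 to 0.347 over the alternatives.

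AMOTL2, on chromosome 3 from 134355874 to 134375479, encodes an angiomotin-like protein that holds YAP at cell junctions. It had 11.9, 11.7 and 10.6 FPKM in replicates 1, 2 and 3 of HCC827/GR and 7.28 and 11.5 FPKM in HCC827 replicates 2 and 3. Only HCC827 replicate 2 was apart from the rest. The log2 fold change of 0.29 had a 95% interval from -0.23 to 0.80 (adjusted p = 0.419), and it was -0.01 without HCC827 replicate 2 and 0.58 without HCC827 replicate 3.

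AJUBA encodes a LIM protein that restrains LATS kinases. It had 18.2, 15.0 and 23.1 FPKM in replicates 1, 2 and 3 of HCC827/GR and 18.8 and 19.9 FPKM in HCC827 replicates 2 and 3. The HCC827 values lay inside the HCC827/GR range, and the log2 fold change of -0.06 had a 95% interval from -0.56 to 0.44, with 0.08 without HCC827/GR replicate 2. Its entry joins AJUBA (chromosome 14, 22971174 to 22982642) with transcripts of HAUS4 and 2 other annotated genes, so the values belong to the group and not to AJUBA alone.

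The order of the levels changed between the cell lines mainly through ANKRD1, from rank 9 to rank 3, and YAP1, from rank 3 to rank 7. Every YAP1 value lay above those of AMOTL2 and TEAD1 in HCC827 libraries and below them in HCC827/GR libraries. In HCC827 cells the means fell from CYR61 (68.4 FPKM) through AJUBA (19.3), YAP1 (12.9), WWTR1 (11.2), AMOTL2 (9.37), TEAD1 (7.44), LATS2 (2.90) and CTGF (1.77) to ANKRD1 (1.70). Neighbours in this order from YAP1 to TEAD1 overlapped in their library values, and so did those from LATS2 to ANKRD1. In HCC827/GR cells ANKRD1 took rank 3, with a mean of 16.6 FPKM between AJUBA (18.8) and WWTR1 (16.2), from which it was not separated. YAP1 stood at rank 7 with 9.32 FPKM, below AMOTL2 (11.4) and above CTGF (7.39), with no overlap on either side.

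A list of 17 further genes of a commonly used YAP and TAZ target signature had 16 entries, of which 15 were tested. At an adjusted p under 0.05, 1 was higher, 1 was lower and 13 were not called, beside 5.26% of all entries called higher and 5.71% lower. The median log2 fold change was 0.39, against 0.00 over all entries tested. The groups did not overlap for 7 higher and 5 lower genes, beside 22.8% and 23.4% of all entries. By the fold rule used for the members, 1 passed upward and 2 downward, beside 2.96% and 3.97% of all entries. NUAK2, a kinase of the AMPK family, had 10.5, 13.7 and 12.7 FPKM in replicates 1, 2 and 3 of HCC827/GR and 3.86 and 3.04 FPKM in HCC827 replicates 2 and 3. It rose by 1.58 (standard error 0.16, adjusted p = 0.0101 from limma), and without HCC827 replicate 3 the adjusted p was 0.0563, where the alternatives spanned 0.00843 to 0.226. IGFBP3, a binding protein for insulin-like growth factors, went the other way, with 8.17, 4.52 and 7.32 FPKM against 38.7 and 42.0 FPKM. It fell by 2.46 (standard error 0.25, adjusted p = 0.0102 from limma), with 0.0694 and 0.0676 without HCC827 replicates 2 and 3, where the alternatives spanned 0.00864 to 0.252.

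Upstream regulators and cofactors formed a list of 27 genes, of which 26 had an entry and 23 were tested. At an adjusted p under 0.05, 3 were higher and 3 lower, beside 5.26% and 5.71% of all entries. The median log2 fold change was 0.16, against 0.00 over all entries tested. The groups did not overlap for 8 higher and 5 lower genes, beside 22.8% and 23.4% of all entries. Without HCC827/GR replicate 1 no gene of the list was called by limma in either direction, without HCC827 replicate 2 the counts were 0 higher and 1 lower, and without HCC827 replicate 3 they were 1 and 1. The higher ones include scaffolds that promote LATS activity. NF2, which encodes merlin, had 17.4, 19.8 and 18.0 FPKM in replicates 1, 2 and 3 of HCC827/GR and 7.70 and 9.18 FPKM in HCC827 replicates 2 and 3, and it rose by 1.04 (standard error 0.12, adjusted p = 0.0123 from limma). WWC1, which encodes KIBRA, a partner of merlin, had 13.6, 14.7 and 12.5 FPKM against 5.97 and 6.35 FPKM and rose by 1.02 (standard error 0.10, adjusted p = 0.0109). Its relative WWC2 rose by 0.47 (adjusted p = 0.0380). Each of the NF2 and WWC1 libraries of the resistant cells was above each parental library. Without HCC827/GR replicate 1 the adjusted p was 0.0518 for NF2 and 0.0523 for WWC1. Without HCC827 replicate 2 it was 0.0595 and 0.0622, and without HCC827 replicate 3 that of WWC1 was 0.0533. Over the alternatives it ran from 0.0112 to 0.233 for NF2 and from 0.00955 to 0.200 for WWC1.

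VGLL3, a cofactor that binds TEAD in place of YAP and TAZ, had 0.479, 0.472 and 0.430 FPKM in replicates 1, 2 and 3 of HCC827/GR and 3.28 and 2.39 FPKM in HCC827 replicates 2 and 3. It fell by 1.38 on the log2(FPKM + 1) scale (standard error 0.14, adjusted p = 0.0109 from limma). With a pseudocount of 0.1 the value was -2.37, and the ratio of the mean FPKM was 0.162. The adjusted p was 0.0504 without HCC827/GR replicate 1, where the alternatives spanned 0.00921 to 0.220. CRB3, an apical polarity protein of epithelia, had 1.63, 1.89 and 1.29 FPKM against 5.90 and 4.67 FPKM and fell by 1.27 (standard error 0.15, adjusted p = 0.0145). Its adjusted p was 0.0593 without HCC827/GR replicate 1 and 0.0839 and 0.0571 without HCC827 replicates 2 and 3, where the alternatives spanned 0.0134 to 0.255. TAOK3, a kinase that can act on STK3 and STK4, fell by 0.86 (adjusted p = 0.0245). Both CRB3 and the epithelial markers were lower in the same libraries, and the part of epithelial state in the CRB3 value was not tested. Of the core relay, named here after its values were seen, LATS2 was called higher at 0.98, and STK3, STK4, SAV1, MOB1A and LATS1 were not called, with log2 fold changes from -0.05 to 0.19.

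**Figure D3:**
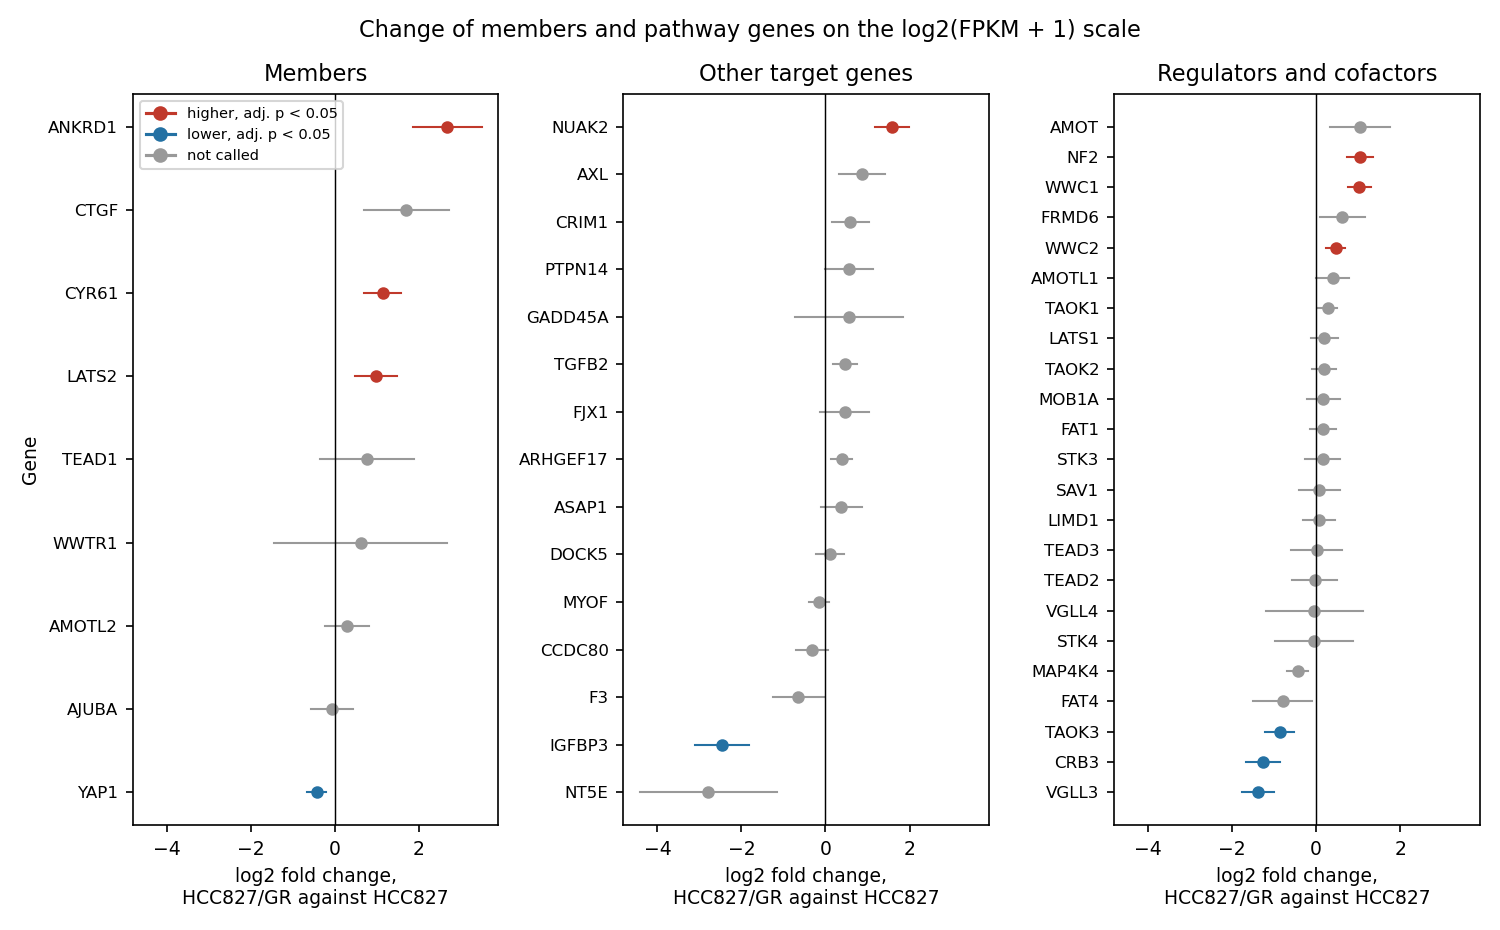
Log2 fold change (HCC827/GR over HCC827, from log2(FPKM + 1) values), with 95% intervals from limma, for the 9 tested members, 15 other target genes and 23 regulators and cofactors, in red where called higher, blue where called lower and grey where not called. ANKRD1, CTGF, NUAK2 and CYR61 lie furthest right and NT5E and IGFBP3 furthest left, with CTGF and NT5E in grey. Most genes of the lists are grey.

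The position of the members on their chromosomes was examined through the 5 tested protein-coding genes on each side. From first to last start, these neighbours spanned from 522 kilobases for AJUBA to 6437 kilobases for YAP1. Among all entries tested, 5.26% were called higher and 5.71% lower, with a median log2 fold change of 0.00. For CTGF, CYR61 and ANKRD1 the medians of the 10 neighbours were 0.17, 0.10 and 0.07 on the log2 scale, against changes of 1.70, 1.14 and 2.68 for the genes themselves. Each had 1 neighbour that was called higher, MOXD1 (0.67) beside CTGF, LMO4 (1.64) beside CYR61 and PCGF5 (0.58) beside ANKRD1, so that the change of LMO4 was above that of CYR61. For LATS2 the neighbours had a median of -0.25 and a range from -0.74 to 0.69. The neighbours of YAP1 had a median of 0.11, with 7 above 0 and 3 below. BIRC2 and BIRC3, which start 237 and 207 kilobases beyond the start of YAP1, were picked after their values were seen. They had log2 fold changes of 0.04 and 0.64 with adjusted p of 0.949 and 0.297 from limma. TRPC6 and MMP1, the 2 neighbours of YAP1 that were called, were lower by log2 fold changes of -1.69 and -1.39. The neighbours of TEAD1 had the highest median, 0.30, with 9 of 10 above 0, and RRAS2 (1.06) was called higher. Among the neighbours of AMOTL2, SLCO2A1 (-3.34) was called lower and PPP2R3A (0.94) higher. RNA levels do not measure copy number.

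**Figure D4:**
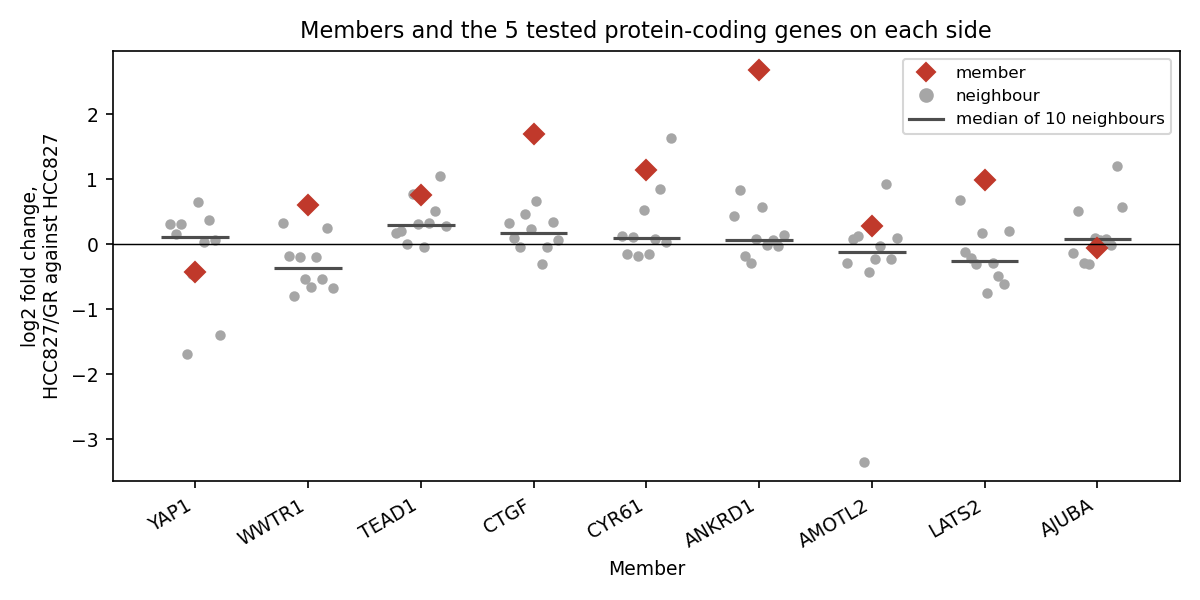
Log2 fold change of HCC827/GR against HCC827 for each member (red diamond) and for the 5 tested protein-coding genes on each side of it (grey points, in order of position, with a bar at their median). ANKRD1, CTGF, LATS2 and WWTR1 lie above all 10 of their neighbours, though CTGF and WWTR1 were not called. YAP1 lies below 7 of its 10.

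Genes whose pattern over the 5 libraries was most like that of a member were looked up among 9499 protein-coding entries averaging 1 FPKM or more, by the root mean square difference of log2(FPKM + 1) after centring each gene. Those closest to YAP1 were HM13 (0.0261), TMX3 (0.0293) and NDC80 (0.0294). Those closest to CYR61 were MARCH3 (0.0760), DYRK3 (0.0866) and LIF (0.0900), and LIF, a cytokine of the IL6 family, had a log2 fold change of 1.04. Those closest to the entry that holds TEAD4 were GPATCH3 (0.0341), ABL2 (0.0486) and ARRB1 (0.0555). These values rank likeness over 5 libraries and describe them only.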

How the data were processed

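Per the labels and the methods, the authors trimmed reads with Cutadapt, checked them with FastQC, mapped them with Bowtie2 and TopHat2, assembled them with StringTie and deposited FPKM values from StringTie and Ballgown, per gene or assembled locus and library. Versions are not given in the sources used here, and the submitters' processing notes name build hg18. The methods describe rRNA-depleted RNA and an mRNA library, the labels a small-RNA kit. The deposited table has 1 FPKM column of no listed sample, which was not used.

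Where a symbol had several entries, that of the highest mean was taken. Entries averaging 0.5 FPKM or more were fitted with limma 3.58.1 in R 4.3.3 (eBayes with trend) on log2(FPKM + 1), a scale that understates changes of low genes. Shares used an exact permutation test. Annotation came from GENCODE release 29 by Ensembl transcript identifier, and promoters from RefSeq (GRCh38.p14). Protein sequences were not used here. Python 3.11.15, numpy 2.4.6, pandas 2.3.3 and matplotlib 3.10.9 were used, and the limma step was tested on simulated data. The members, lists and rules were chosen with earlier results of these data known. Named were all members, list genes with an adjusted p under 0.05 whose fold was 2 or more, or 0.5 or less, and TEAD2 and TEAD3. WWC2 and TAOK3, which complete the called regulators, the core relay, NT5E and some neighbours of members were named after their values were seen. Each library was left out in turn, and the other settings tried were a replicate block, the model of Ballgown (with a term for library size), quantile normalization, median-ratio scaling, limma without its trend, a filter at 1 FPKM, no filter, a pseudocount of 0.1, summed entries per symbol, and the ratio of mean FPKM. A TEAD share without the joined entry was added after the data were seen.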

Additional observations from a re-analysis of the deposited data

Results flagged for a closer look

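LATS2 has a second entry in the table, which the choice of the entry with the highest mean leaves out. It held 1.353 FPKM in HCC827/GR replicate 1 and was listed at 0 in the other HCC827/GR libraries and in both HCC827 libraries. It stands out because a signal is present in an HCC827/GR library and not in the parental ones. It contains no annotated transcript, and summing both entries of LATS2 gave a log2 fold change of 1.06 (adjusted p = 0.0482, limma, where the alternatives spanned 0.0402 to 0.347).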

How the results depend on the processing

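Directions of YAP1, TEAD1, CTGF, CYR61, ANKRD1, LATS2 and the 6 called list genes with full values were kept in all 14 tested alternatives. Their calls were not kept. Of these alternatives, ANKRD1 was called in 10, CYR61 in 7, LATS2 in 6, YAP1 in 3 and CTGF in 1. Members called higher, 3 in the report, were 1 with no filter on low values, 0 with Ballgown's model, 0 with the replicate block, and 0 to 2 with 1 library left out. Members called lower, 1 in the report, were 0 with no filter, with median-ratio scaling, without the trend, with Ballgown's model, with the replicate block, with entries summed, and whichever library was left out (0 to 0). Signature genes higher and lower, 1 each in the report, were 0 and 0 with Ballgown's model and with the replicate block, and 0 to 1 and 0 to 2 with 1 library left out. Regulators higher and lower, 3 each in the report, were 0 and 0 with both of these models, and 0 to 2 and 0 to 3 with 1 library left out. At an unadjusted p under 0.05, 2 members were higher and 1 lower with Ballgown's model, and 5 and 1 with the replicate block. Over all entries Ballgown's model called 6 higher and 9 lower. The block called 0, with 3545 entries at an unadjusted p under 0.05. It takes no information from HCC827/GR replicate 1, which has no partner. Over all entries tested, the difference of replicates 2 and 3 had a correlation of 0.0274 between the cell lines. Whether the numbers pair the libraries for single genes was not tested. Under the replicate block ANKRD1 changed by 2.85 and CYR61 by 1.27. The TEAD1 share differed by 2.09 to 23.4 percentage points and the YAP1 share by -35.8 to -0.0821 percentage points with 1 library left out. Without the joined entry the TEAD1 difference was 14.3 percentage points, an alternative chosen after seeing the data. No blocked fit was made for the shares. Signs turned for WWTR1 (-0.33 without HCC827 replicate 3), AMOTL2 (-0.0076 without HCC827 replicate 2), AJUBA (0.083 without HCC827/GR replicate 2) and the entry AC125807.2 that holds TEAD4 (-0.12 without HCC827 replicate 2). They turned for TEAD2 with Ballgown's model (0.18) and without HCC827/GR replicate 3 (0.13) or HCC827 replicate 2 (0.12). For TEAD3 they turned with quantile normalization (-0.0196), with the replicate block (-0.14), and without HCC827/GR replicate 1 (-0.14), HCC827/GR replicate 3 (-0.014) or HCC827 replicate 3 (-0.15). With 1 library left out the values ran from -0.33 to 1.56 for WWTR1, -0.0076 to 0.58 for AMOTL2, -0.21 to 0.083 for AJUBA, -0.12 to 0.32 for AC125807.2, -0.19 to 0.13 for TEAD2 and -0.15 to 0.19 for TEAD3. The cause was not tested, apart from the smaller number of libraries when one is left out. Depth is unknown, so no counting error could be given.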
